A study of Homo sapiens with 4 samples.

Results

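The 10 genes described here encode the FOS and JUN families, whose proteins pair to form the transcription factor AP-1, together with EGR1, IER2 and MYC. They were chosen by name, as FOS, FOSB, FOSL1, FOSL2, JUN, JUNB, JUND, EGR1, IER2 and MYC. All 10 were present among the 61806 genes of the expression table, each with 1 entry. RNA was sequenced from 4 libraries of cells kept in suspension, where attachment to a surface was prevented. JJ012 is a human chondrosarcoma line and 143B is a human osteosarcoma line, and each line gave 1 library of untreated control cells and 1 library of cells treated with 1 mM melatonin for 72 h. Melatonin is a pineal hormone that the study examined as an inhibitor of anchorage-independent survival, and the comparison of treated with untreated cells asked which transcripts differ under detachment. There were no replicates, and no library of adherent cells was part of the comparison.

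FOS, JUN, EGR and MYC genes are classical growth-response genes, switched on by serum, growth factors or stress through kinase cascades such as ERK, JNK and p38. FOS, FOSB, EGR1 and IER2 are among the immediate early genes, whose transcripts appear quickly after a stimulus, decay fast and are read here at a single time long after treatment began. A FOS protein needs a JUN partner to bind DNA, whereas JUN proteins also pair with each other, and in skeletal cells AP-1 acts on matrix-degrading enzymes and cell growth. EGR1 is a zinc-finger factor of the serum response, IER2 is a small nuclear protein induced alongside it, and MYC pairs with MAX to drive ribosome production and metabolism.

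The deposited levels are FPKM, in which counts are scaled to exonic length and to the library total. A difference was taken as the log2 of (FPKM + 1) over (FPKM + 1), a scale that understates the change of low genes. A gene was tested when it reached 1 FPKM in at least 1 of the 2 libraries compared, and it is called higher or lower at an absolute value of 0.58 or more. With 1 library per condition no test between cultures exists, so no p-value is given. Beside it stands the log2 ratio of CPM, counts scaled to the library total alone, with an exact Clopper-Pearson 95% interval that covers counting error only. The columns of treated cells were recognised from a suffix T in their names.

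The libraries held 15889564 to 19218343 counts and 13198 to 14477 genes at 1 FPKM or above, and a floor of 3 counts corresponded to 0.156 to 0.189 CPM. The mitochondrial genome supplied 6.78% of counts in untreated and 4.35% in treated JJ012, against 1.63% and 2.46% in 143B. Of 9 chondrocyte markers only 2 reached 1 FPKM in the JJ012 control and 1 in each other library, with a summed level of 18.5 FPKM in the JJ012 control, 7.35 after melatonin, and 17.4 and 14 in 143B. SOX9 was present, but COL2A1 stayed at or below 0.04 FPKM and ACAN at or below 0.11, so the defining cartilage matrix genes were near 0 in the chondrosarcoma line. Of 8 osteoblast markers 4 reached 1 FPKM in the JJ012 control and 3 elsewhere, with 96.7 and 70.6 FPKM summed in JJ012 and 8.52 and 6.87 in 143B, while SP7 did not pass 0.12 FPKM. Most of the JJ012 sums came from SPP1 alone, at 79.39 and 64.50 FPKM. RUNX2, ALPL and BGLAP were higher in the 143B control than in the JJ012 control, and the other osteoblast markers were lower. Of 5 leukocyte markers 2 reached 1 FPKM in both JJ012 libraries, with CD3E at 9.73 FPKM in the control and 3.28 after melatonin but PTPRC at 0.14 or less, and their sum was 14.1 and 5.87 FPKM, against 0.96 and 1.23 in 143B. Epithelial markers summed to 21.6 and 13.6 FPKM in JJ012 and 46.9 and 32.4 in 143B, with 2 or 3 of 5 reaching 1 FPKM. Endothelial markers summed to 0.93 to 2.4 FPKM, with 0 or 1 of 3 reaching it. Marker sums were lower with melatonin throughout, except for the leukocyte list in 143B. Each library came from 1 cell line, so these markers are read as transcripts of the line and not as a mixture of tissues. Their part in the results was not tested. In bulk RNA, fewer cells expressing a marker cannot be told apart from less of its RNA per cell.

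Promoter sequence was available for 8 of the 10 genes, all but FOSL1 and MYC, from RefSeq on GRCh38.p14, and the 250 bases before each RefSeq start were searched on both strands. Of the motifs searched, TGACG, the core of the cyclic AMP response element (CRE) bound by CREB and ATF proteins, was the only one in all 8, against 21.2% of 35116 promoters of this length. Each gene's match follows with 8 bases on either side, on the strand that reads TGACG, at the match nearest the start, with the core in capitals, because it is the searched motif that these 8 genes share.
FOS: tgagcccgTGACGtttacact
FOSB: ggggcgggTGACGtaagcagg
FOSL2: tctggggtTGACGtgagtgaa
JUN: ctccatggTGACGggcgggcc
JUNB: cctgacagTGACGcgagccgc
JUND: ggtgcgggTGACGtcgctcat
EGR1: ctccgtcgTGACGtacatggc
IER2: tggtggcgTGACGggggcggg
Counted back from the base before the start (-1), these matches began between -140 and -60, and JUND, EGR1 and FOSL2 held more than 1. These GC-rich promoters had 62% to 74.8% G and C, against a median of 58% over all promoters. The share of 21.2% was not matched for this, and TGACG is the shortest motif searched. The RefSeq start of FOSL2 lies inside the gene span of the deposited table. A match in letters is not evidence of binding.

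The promoters of EGR1 and JUND are printed in full because EGR1 in 143B and JUND in JJ012 were far up among all tested genes in the comparisons that follow. The first is chr5:138465229-138465478 on the plus strand, and capitals mark both CArG boxes, the element bound by serum response factor, and both TGACG cores, which read CGTCA on this strand. The second is chr19:18281623-18281872 on the minus strand, and capitals mark the complete CRE TGACGTCA at -200 to -193 and a further core at -86 to -82, nearer the start.
EGR1: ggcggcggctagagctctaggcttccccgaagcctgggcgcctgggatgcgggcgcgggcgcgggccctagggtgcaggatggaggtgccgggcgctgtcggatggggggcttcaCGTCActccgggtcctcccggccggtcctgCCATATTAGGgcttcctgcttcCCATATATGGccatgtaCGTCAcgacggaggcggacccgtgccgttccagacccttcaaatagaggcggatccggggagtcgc
JUND: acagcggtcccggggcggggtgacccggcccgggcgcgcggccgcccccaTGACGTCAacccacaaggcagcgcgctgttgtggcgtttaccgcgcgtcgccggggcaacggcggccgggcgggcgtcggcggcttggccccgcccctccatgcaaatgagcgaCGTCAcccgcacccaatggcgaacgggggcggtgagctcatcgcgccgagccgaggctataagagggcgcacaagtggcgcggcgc
A CArG box was found in 1.16% of all promoters. Within the windows searched, EGR1 alone among the 8 held any CArG box, at -105 to -96 and at -83 to -74. Sequence further upstream was not searched for any motif, so a CArG box there in the other genes is not excluded. EGR1 also held 1 match to GCGNGGGCG, the letters bound by EGR proteins themselves, found in 8.41% of promoters. The full CRE, which contains the core on both strands, was found in 1.65% of promoters and here in JUND alone. JUN held TGACATCA, a variant AP-1 site found in 2.37% of promoters, at -67 to -60. FOS, FOSB and JUNB each held a TATA box (TATAAA, 10.7% of promoters) beginning at -33, -30 and -31. The AP-1 site TGACTCA or TGAGTCA (4.2% of promoters) and the MYC-type E-box CACGTG (6.34%) matched none of the 8, which says only that these letters are absent from these windows.

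The JUN family was the more abundant side of AP-1 in every library. JUN, the founding member, lies on the minus strand at chr1:58776845-58784048 (hg38, as all coordinates here). It stood at 41.74 FPKM in the JJ012 control, 47.81 in melatonin-treated JJ012, 94.58 in the 143B control and 99.14 in melatonin-treated 143B. JUNB, which can restrain JUN and lies at chr19:12791486-12793315 on the plus strand, stood at 47.09, 43.83, 82.92 and 98.59 FPKM in the same order. Both were higher in either 143B library than in either JJ012 library, and neither passed the threshold with melatonin. JUN differed by 0.19 in JJ012 and 0.07 in 143B on the log2(FPKM + 1) scale, and JUNB by -0.10 and 0.25. The log2 CPM ratio was 0.20 for JUN in JJ012, with a counting interval of 0.12 to 0.27, and 0.25 for JUNB in 143B (0.17 to 0.33). HOOK2 overlaps JUNB on the opposite strand with 93 to 641 counts against 1295 to 3097 for JUNB, and the strand setting of the counting is not given in the sources used here.

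JUND, often the constitutive member of the family and linked to restrained growth, had the largest difference of the JUN family. It was at 32.02 FPKM in untreated and 88.24 in treated JJ012 cells, from 1187 and 2748 counts, and at 29.10 FPKM in untreated and 37.00 in treated 143B cells, from 892 and 1225 counts. The treated JJ012 library stood above the other three. In JJ012 the log2 difference was 1.43, above that of 97.7% of tested genes, and the CPM ratio was 2.76-fold (log2 1.46, 1.36 to 1.56). In 143B the difference was 0.34, under the threshold, with a log2 CPM ratio of 0.35 (0.22 to 0.47). The log2 ratio in JJ012 exceeded that in 143B by 1.12 (0.96 to 1.27, counting error only). JUND, like JUN and JUNB, has a single annotated exon, with 1929 exonic bases at chr19:18279694-18281622 on the minus strand. Across all tested genes the JJ012 difference was larger for longer genes (Spearman 0.24, a description across genes), and JUND was at 1.77 with that trend removed.

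JUN family levels summed to 121 FPKM in the JJ012 control and 180 with melatonin, and to 207 and 235 in 143B. JUND made up 26.5% of this sum in the JJ012 control and 49.1% after melatonin, against 14.1% and 15.8% in 143B. JUN was 34.5% and 26.6% in JJ012 and 45.8% and 42.2% in 143B. In treated JJ012 cells JUND was thus the leading JUN family transcript, ahead of JUN and JUNB, while it was the lowest of them in the other libraries.

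On the FOS side nearly all transcript was FOSL1 and FOSL2, the FRA-1 and FRA-2 proteins that lack the strong activation domain of FOS. FOSL1, at chr11:65892049-65900573 on the minus strand, stood at 19.96 FPKM in the JJ012 control, 32.83 in melatonin-treated JJ012, 74.34 in the 143B control and 78.79 in melatonin-treated 143B. FOSL1 was higher with melatonin in JJ012, by 0.69, or 1.64-fold in CPM (log2 0.72, 0.58 to 0.86). In 143B it differed by 0.08 (log2 CPM ratio 0.08, 0.00 to 0.17). The level in either 143B library was above that in either JJ012 library.

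FOSL2, at chr2:28392448-28417317 on the plus strand, stood at 23.23 FPKM untreated and 37.91 treated in JJ012, from 3197 and 4383 counts, and at 26.87 and 21.30 FPKM in 143B, from 3058 and 2619 counts. The control levels of the lines were close, and the treated libraries lay on opposite sides of them. FOSL2 was higher with melatonin in JJ012, by 0.68, or 1.63-fold in CPM (log2 0.71, 0.64 to 0.77), although the value was 0.51, under the threshold, with the length trend removed, its exonic length being 7162 bases. In 143B the difference was -0.32, under the threshold, and the CPM was 1.26-fold lower (log2 -0.33, -0.41 to -0.26). The log2 ratios of the lines differed by 1.04 (0.94 to 1.14).

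FOS and FOSB were the rarest AP-1 transcripts. FOS, at chr14:75278826-75282230 on the plus strand, stood at 1.75 FPKM untreated and 1.65 treated in JJ012, from 107 and 85 counts, and at 3.54 and 4.10 FPKM in 143B, from 179 and 224 counts. Its log2 CPM ratio with melatonin was -0.08 (-0.51 to 0.34) in JJ012 and 0.21 (-0.08 to 0.50) in 143B, so a difference was not detectable at this depth in either line. FOSB, a close relative of FOS at chr19:45467995-45475179 on the plus strand, stood at 0.78 and 0.54 FPKM in JJ012, from 83 and 48 counts, and at 0.92 and 1.56 FPKM in 143B, from 81 and 149 counts. It was under 1 FPKM in both JJ012 libraries and therefore not tested there, where its log2 CPM ratio was -0.54 (-1.08 to -0.01). In 143B its difference was 0.42 with the pseudocount of 1, under the threshold, and its log2 CPM ratio was 0.77 (0.37 to 1.18), a 1.7-fold level. ERCC1 overlaps FOSB on the opposite strand with 598 to 1432 counts, many times those of FOSB, and ERCC1 had 1432 and 598 counts in JJ012 and 771 and 848 in 143B. Its part in the FOSB values was not tested.

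FOS family levels summed to 45.7 FPKM in the JJ012 control and 72.9 with melatonin, and to 106 in both 143B libraries. FOSL1 was 43.7% and 45% of this sum in JJ012 and 70.4% and 74.5% in 143B, and FOSL2 was 50.8% and 52% against 25.4% and 20.1%. The make-up of the FOS family thus differed more between the lines than between control and melatonin. All AP-1 transcripts summed to 167 and 253 FPKM in JJ012 and 312 and 340 in 143B, of which the JUN family held 72.6%, 71.2%, 66.2% and 68.9%. By counts, which favour the longer FOS family genes, the JUN share was 58.3% and 55.4% in JJ012 and 61.2% and 65.4% in 143B, so the order of the lines depends on the scale.

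**Figure D1:**
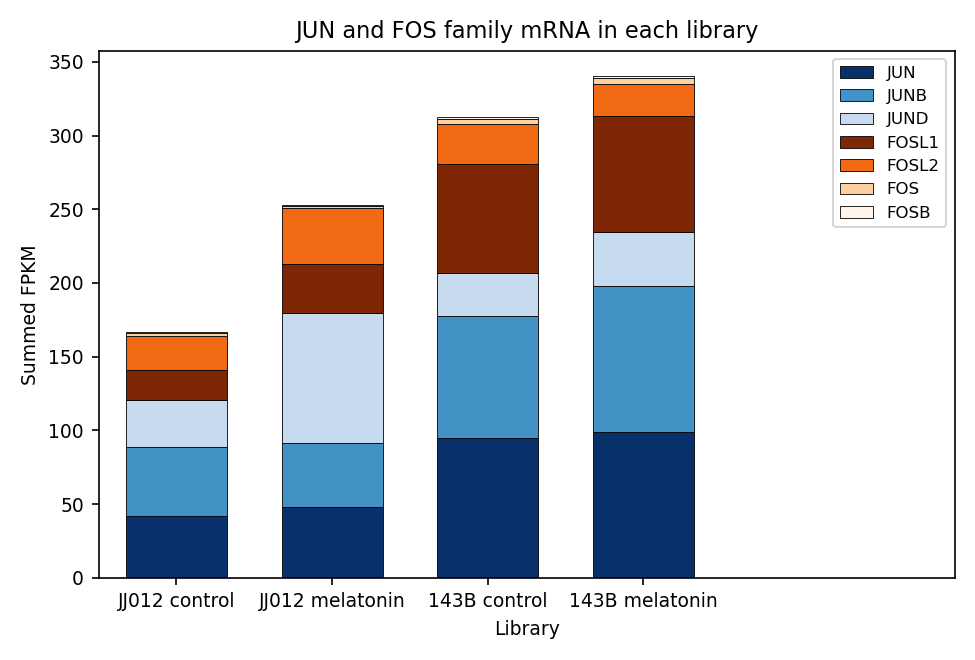
Summed FPKM of the JUN family (blue) and FOS family (orange to brown) genes in each of the 4 libraries, stacked by gene from 0, with 1 library per bar. JUND widens from 32.02 to 88.24 FPKM in JJ012 with melatonin, and FOSL1 is the largest FOS family segment in both 143B libraries.

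EGR1 gave the widest range of the 10 genes. From chr5:138465479-138469303 on the plus strand, it stood at 2.67 FPKM untreated and 3.42 treated in JJ012, from 161 and 173 counts, and at 23.13 and 62.36 FPKM in 143B, from 1153 and 3358 counts. In 143B it was higher with melatonin by 1.39, above 99.4% of tested genes, and 2.7-fold in CPM (log2 1.43, 1.33 to 1.53). In JJ012 the difference was 0.27, under the threshold (log2 CPM ratio 0.36, 0.04 to 0.67), and the ratio there was smaller than in 143B by 1.08 on the log2 scale (difference -1.08, -1.40 to -0.75). The treated 143B library was the highest by far. IER2, at chr19:13150411-13154911 on the plus strand, stood at 18.08 FPKM in the JJ012 control, 17.46 with melatonin, 39.98 in the 143B control and 58.58 with melatonin. Its difference was -0.05 in JJ012 and 0.54 in 143B, the latter just under the threshold, with log2 CPM ratios of -0.05 (-0.18 to 0.08) and 0.55 (0.47 to 0.63). On the FPKM + 1 scale EGR1 and IER2 had the largest differences of the 10 genes in 143B, whereas by CPM ratio FOSB and MYC came between them.

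MYC had the largest difference of the 10 genes in JJ012 on the FPKM + 1 scale, although JUND, at 1.77, exceeded MYC, at 1.53, once the length trend was removed. It stood at 2.86 FPKM untreated and 10.20 treated in JJ012, from 252 and 755 counts, and at 1.06 and 1.75 FPKM in 143B, from 77 and 138 counts. Both JJ012 libraries were above both 143B libraries. In JJ012 MYC was higher with melatonin by 1.54, above 98.3% of tested genes, and 3.57-fold in CPM (log2 1.83, 1.63 to 2.05). In 143B the difference was 0.42, under the threshold at these low levels, and the log2 CPM ratio was 0.73 (0.32 to 1.15), or 1.66-fold. The log2 ratios of the lines differed by 1.10 (0.65 to 1.56).

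**Figure D2:**
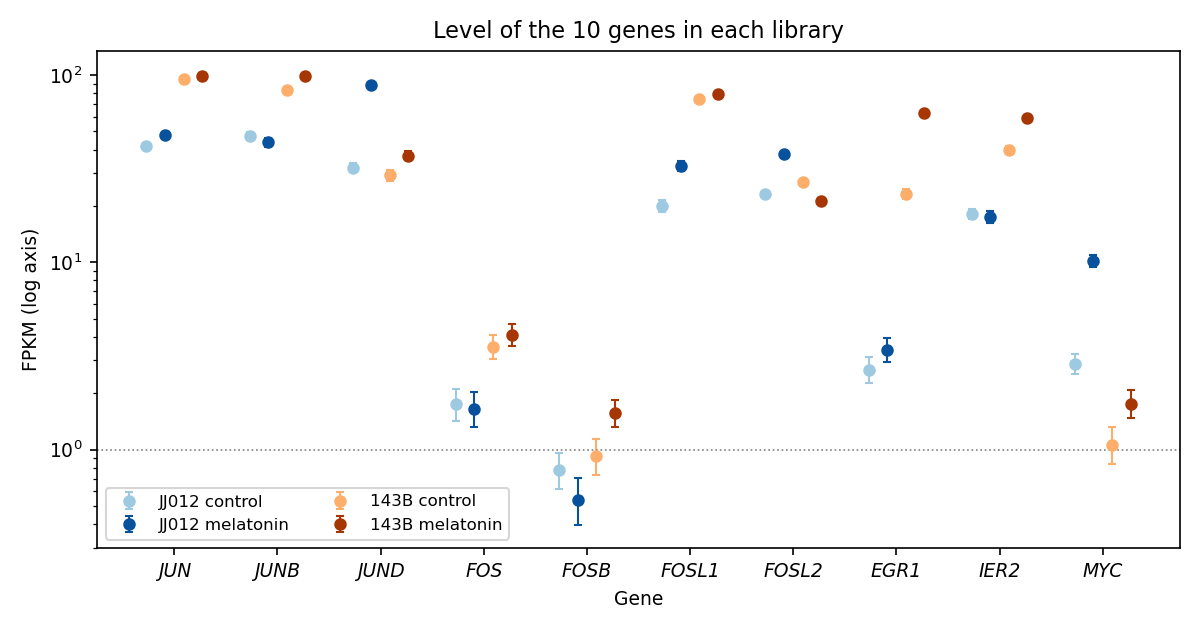
FPKM on a log axis for the 10 genes in the 4 libraries, with 95% Poisson intervals of the counts (counting error only) as bars and a dotted line at 1 FPKM. JUND and MYC are highest in melatonin-treated JJ012, and EGR1 is highest in melatonin-treated 143B at 62.36 FPKM.

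Ordered per length, the 10 genes ran in the JJ012 control from JUNB, JUN, JUND, FOSL2, FOSL1 and IER2 down to MYC, EGR1, FOS and FOSB. In that order FOSL1 and IER2, and MYC and EGR1, had counting intervals that met. In melatonin-treated JJ012 JUND came first, the intervals of JUN and JUNB met, and MYC stood above EGR1. In the 143B control JUN led JUNB, FOSL1, IER2, JUND, FOSL2, EGR1, FOS, MYC and FOSB, with the intervals of JUND and FOSL2 and of MYC and FOSB meeting. In melatonin-treated 143B EGR1 came next after FOSL1, level with IER2, and JUN and JUNB were level at the top.

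Counted together, 9 of the 10 genes were tested in JJ012. With melatonin 4 were higher (FOSL1, FOSL2, JUND and MYC), 0 were lower and 5 were neither. Of 15794 genes tested in JJ012, 19.6% were higher and 18.6% were lower, and of the protein-coding genes among them, to which all 10 belong, 17.8% and 16.1%. The median difference was 0.27 over these genes and 0.008 over all tested genes, whose central 90% ran from -1.10 to 1.15. In 143B all 10 were tested, and 1 was higher (EGR1), 0 were lower and 9 were neither. Of 14135 genes tested there 6.09% were higher and 6.65% lower, or 3.48% and 2.6% of the protein-coding genes. The median was 0.29 against 0.026 over all, with a central 90% from -0.69 to 0.63. In JJ012, scaling to TPM moved the median of all genes by 0.26, and then 68.8% of the changed genes were higher instead of 51.4%. JUND, MYC and FOSL1 in JJ012 and EGR1 in 143B remained past 0.58 in the main setting and in each alternative scaling, filter, pseudocount and length correction. FOS, JUNB and IER2 in JJ012, under the threshold in each setting, changed sign among those settings, as did FOSL1 in 143B.

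**Figure D3:**
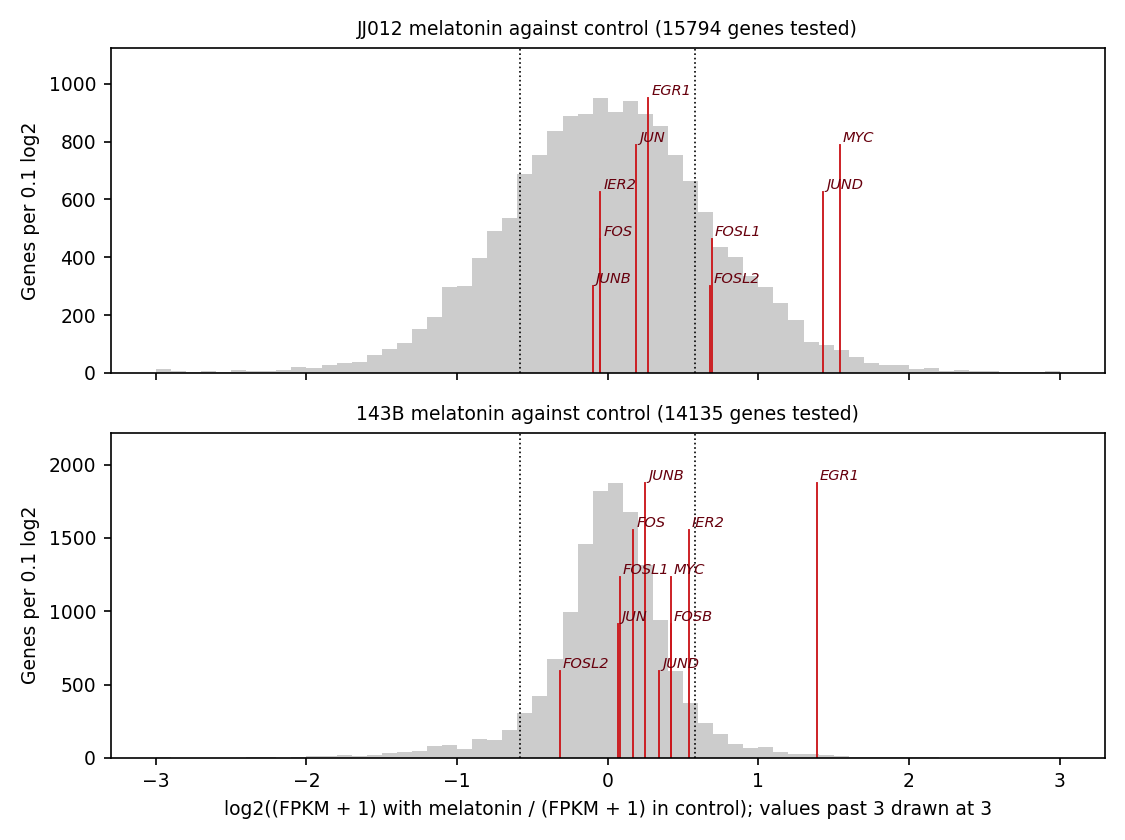
Histograms of the log2 difference in FPKM + 1, melatonin over control, for all tested genes of each line (grey, bins of 0.1 log2), with the tested genes of the 10 as red lines and the threshold of 0.58 as dotted lines; the height of a red line has no meaning. MYC and JUND lie in the upper tail in JJ012, and EGR1 in 143B.

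**Figure D4:**
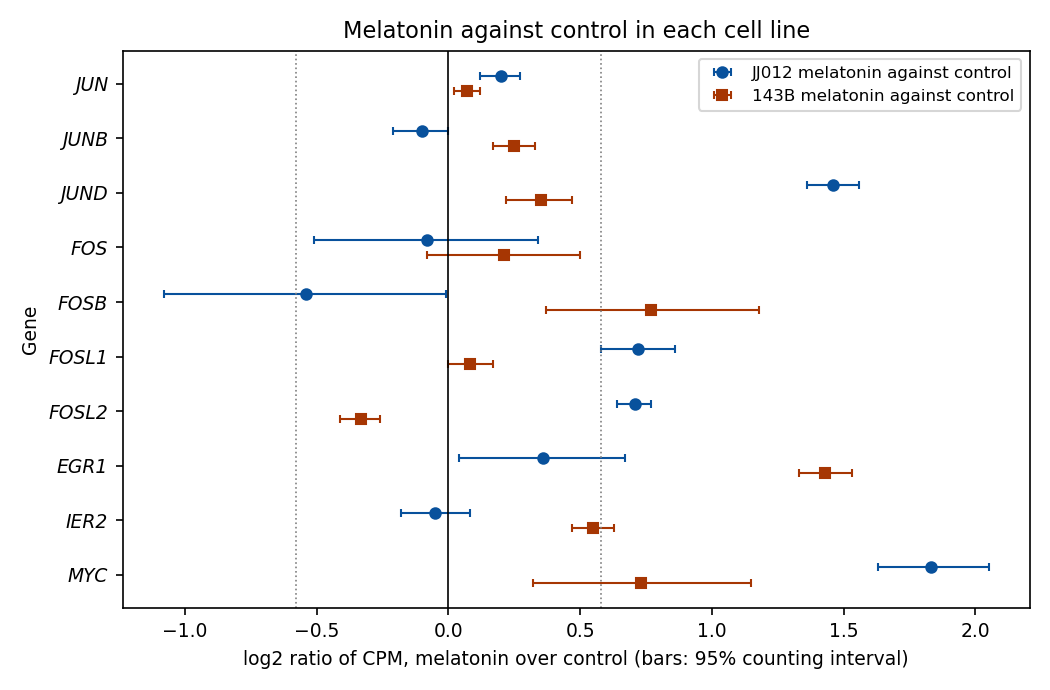
Log2 ratio of CPM, melatonin over control, for each of the 10 genes in JJ012 (blue circles) and 143B (brown squares), with 95% intervals that cover counting error only, and dotted lines at 0.58. FOSL2 and FOSB have intervals on opposite sides of 0 in the lines, though that of FOSB in JJ012 ends at -0.01. Intervals are widest where counts are low, as for FOS and FOSB in both lines, EGR1 in JJ012 and MYC in 143B.

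Between the control libraries, which also serve as controls in the melatonin comparisons, 6 of 9 tested genes were higher in 143B than in JJ012, 1 was lower and 2 were neither. Of 16929 genes tested 27.4% were higher and 41.3% lower in 143B, or 25.1% and 39.6% of protein-coding genes. EGR1 was 8.66-fold higher in CPM (log2 3.11, 2.88 to 3.36), FOSL1 3.72-fold (interval of the log2 ratio 1.78 to 2.02), JUN 2.27-fold, IER2 2.21-fold, FOS 2.02-fold and JUNB 1.76-fold. MYC was 2.71-fold lower in 143B (log2 -1.44, -1.82 to -1.06). JUND differed by -0.13 and FOSL2 by 0.20 on the FPKM scale, both under the threshold. The median was 0.80 over these genes and -0.286 over all. TMM scaling moved the median of all genes by 0.35, and 52.3% of the changed genes were then higher in 143B instead of 39.9%. Line and culture cannot be told apart with 1 library each.

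Other genes of these pathways were followed in 11 lists, in which a few genes (MAFF, ATF3, ZFP36 and HBEGF) stand in more than 1. Their counts stand beside the shares of all tested genes, 19.6% higher and 18.6% lower in JJ012. In 143B these shares were 6.09% and 6.65%. Among 13 bZIP relatives of AP-1, 10 were tested in JJ012, of which 6 were higher and 2 lower with melatonin, with a median of 0.68. MAFF rose from 6.38 to 13.04 FPKM (0.93), MAFK from 12.08 to 22.85 (0.87) and MAFG from 23.19 to 38.81 (0.72), the small MAF proteins that dimerize without an activation domain. BATF fell from 5.83 to 3.00 FPKM (-0.77), and JDP2, a repressor of AP-1, from 2.11 to 0.99 (-0.64). In 143B 10 were tested, 0 were higher and 2 were lower, namely MAF, from 28.95 to 17.71 FPKM (-0.68), and ATF3, from 3.35 to 1.87 (-0.60), and the small MAF genes differed by -0.41 to -0.52.

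Of 34 further immediate early genes 30 were tested in JJ012, and 13 were higher and 3 lower, with a median of 0.52. KLF6 rose from 33.86 to 137.69 FPKM (1.99), PLK3, a stress-response kinase, from 3.00 to 10.85 (1.57), and TRIB1 from 7.21 to 22.91 (1.54). The 3 that fell were GADD45B (-1.33), BTG1 (-0.81) and KLF10 (-0.76). In 143B 28 were tested, 3 higher and 2 lower, with a median of 0.07. KLF2 rose there from 2.52 to 6.73 FPKM (1.13), HBEGF, an EGF receptor ligand, from 2.84 to 5.09 (0.67) and PLK3 from 4.37 to 7.23 (0.62), while KLF4 fell from 14.52 to 6.86 (-0.98) and ATF3 fell as given above. On the FPKM scale PLK3 alone of this list was higher in both lines, but PLK3 was at 0.56 in 143B with the length trend removed, and HBEGF reached 0.84 in JJ012 with TPM and 0.68 with that trend removed.

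The next lists hold regulators above these genes. Of 10 serum response and CREB regulators 1 was higher in JJ012, ELK4, an SRF partner, from 7.36 to 17.10 FPKM (1.11), 0 were lower, and in 143B 0 were higher or lower. Of 15 tested ERK, JNK and p38 pathway kinases 2 were higher in JJ012 (MAP3K1, 0.87, and BRAF, 0.79) and 2 lower, MAPK3 (ERK1) from 21.41 to 11.24 FPKM (-0.87) and MAP2K2 (MEK2) from 18.66 to 9.89 (-0.85), and in 143B 0 of 15 were past the threshold. In JJ012 the counts of both lists did not exceed the shares of all tested genes, 19.6% higher and 18.6% lower. With TPM 10 of these kinases and 5 of the SRF and CREB regulators were higher in JJ012, with medians of 0.66 and 0.62 against 0.36 and 0.30 on the FPKM scale, but with TPM 34.6% of all tested genes were higher there. The EGR co-repressors NAB1 and NAB2, which bind EGR1 and limit its activity, were not past the threshold in either line on the FPKM scale, at 0.28 and 0.48 in JJ012 and -0.32 and -0.01 in 143B. With TPM, and with the length trend removed, 1 of the 2 was higher in JJ012 (medians 0.66 and 0.47). Of all tested genes 34.6% and 18% were higher there in these settings.

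Genes of the ERK feedback list are induced by ERK, and its DUSP, SPRY and SPRED genes dampen the pathway. Of 11, 9 were tested in JJ012, 6 were higher and 0 lower, with a median of 0.86. DUSP5, a nuclear ERK phosphatase, rose from 15.62 to 82.15 FPKM (2.32), DUSP4 from 1.09 to 4.76 (1.46) and SPRY4, an inhibitor of receptor signalling, from 1.49 to 5.04 (1.28). In 143B 11 were tested, 0 were past the threshold and the median was 0.18. DUSP5 stood at 131.23 FPKM in the 143B control and 167.44 with melatonin (0.35), and DUSP6 at 110.90 in that control. DUSP6, at 0.08 and 0.10 FPKM in JJ012, was at 166.17 FPKM in treated 143B, a difference of 0.58 that lay just under the threshold before rounding. With TMM factors, or without mitochondrial genes in the totals, 1 of the 11 was higher in 143B, as were 6.85% and 6.46% of all tested genes.

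Textbook AP-1 target genes include matrix proteases, their inhibitors and cytokines. In JJ012 15 of 20 were tested, 1 was higher and 6 were lower, with a median of -0.22 (0.02 with TPM). MMP1, a collagenase, fell from 6.86 to 1.04 FPKM (-1.95) and TIMP1, a metalloproteinase inhibitor, from 170.64 to 78.61 (-1.11), while LIF rose from 6.94 to 22.43 (1.56). In 143B 17 were tested, 7 were higher and 1 was lower, HMOX1 (-0.74), with a median of 0.38. There MMP10 rose from 7.76 to 42.49 FPKM (2.31) and TIMP1 from 109.07 to 204.27 (0.90). MMP1, at 994.01 and 1503.96 FPKM, was past the threshold by little, at 0.60, and under it when centred (0.57), with TPM (0.54), with size factors (0.56) and with the length trend removed (0.52). TIMP1 thus fell in JJ012 and rose in 143B, and the difference between the lines was not tested.

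**Figure D5:**
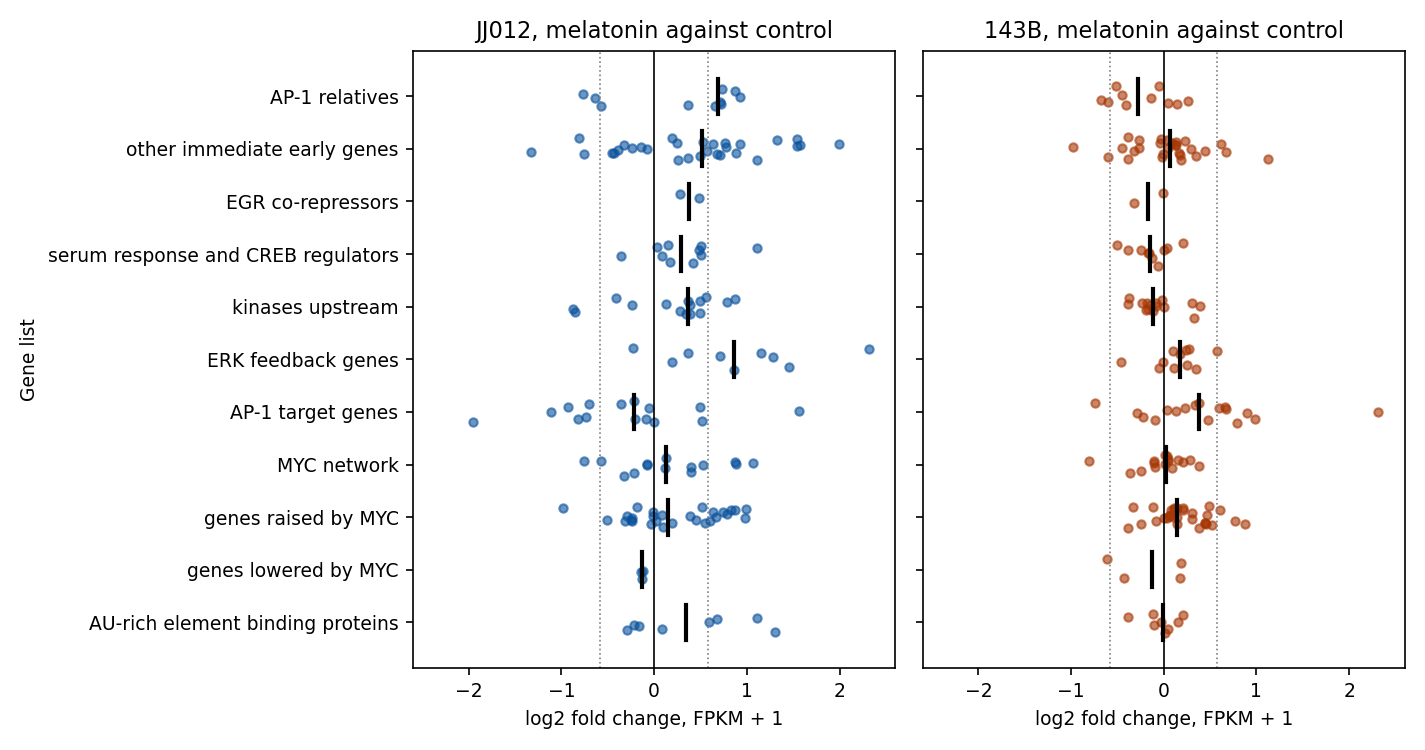
Log2 difference in FPKM + 1, melatonin over control, for every tested gene of each of the 11 lists in JJ012 (left) and 143B (right), with list medians as black bars, 0 as a solid line and 0.58 as dotted lines; vertical scatter within a list is only for legibility. ERK feedback genes have a median of 0.86 in JJ012, and AP-1 target genes one of -0.22 in JJ012 and 0.38 in 143B.

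Around MYC, 14 of 17 partners and antagonists were tested in JJ012, 3 higher and 1 lower. Of all genes tested there 19.6% were higher and 18.6% lower, so the higher count was near that share. MNT, a MAX partner that opposes MYC, rose from 6.24 to 14.23 FPKM (1.07), TRRAP, a MYC coactivator, from 3.10 to 6.55 (0.88) and MXD1, another antagonist, from 1.34 to 3.29 (0.87), and MXD4 fell (-0.76). In 143B 16 were tested, 0 higher and 1 lower, MYCN, from 2.49 to 0.99 FPKM (-0.81). Of 30 genes raised by MYC 28 were tested in JJ012, 9 were higher and 1 lower, with a median of 0.14. WDR43 rose from 10.32 to 21.42 FPKM (0.99) and POLR1B, a subunit of RNA polymerase I, from 8.18 to 17.17 (0.98), whereas LDHA, the lactate dehydrogenase subunit, fell from 520.29 to 262.94 (-0.98). In 143B 30 were tested, 3 higher and 0 lower, namely RRP9 (0.88), ODC1, the first enzyme of polyamine synthesis (0.77), and MYBBP1A (0.61), and RRP9 (0.64), ODC1 (0.67) and MYBBP1A (0.74) also rose in JJ012. Of genes lowered by MYC 3 were tested in JJ012 and 0 passed the threshold, with CDKN1A (p21) at 55.11 and 50.41 FPKM, and of 4 in 143B 1 fell, CDKN1C (-0.61).

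Proteins that bind AU-rich elements, through which transcripts such as FOS and MYC are destabilised, formed the last list. In JJ012 4 of 8 were higher and 0 lower, with a median of 0.34. ZFP36L1 rose from 38.19 to 95.56 FPKM (1.30), ZFP36 from 14.11 to 31.66 (1.11), KHSRP from 20.90 to 34.02 (0.68) and ELAVL1, which instead stabilises its targets, by 0.59. The call of ELAVL1 ended when centred, with size factors (0.56), without mitochondrial genes in the totals (0.56) and with the length trend removed (0.43), which left 3 of 8 higher. In 143B 0 of 8 passed the threshold, with a median of -0.01. The list counts on the FPKM scale stand against the same backgrounds as the 10 genes, and none was tested against other lists.

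Some calls of named list genes ended under another scaling or with the length trend removed. In JJ012 the length trend took BATF to -0.46, BRAF to 0.40 and TRRAP to 0.49, TPM took KLF10 to -0.52, BTG1 to -0.55 and MXD4 to -0.55, and TMM factors took JDP2 to -0.57.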

How the data were processed

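RNA of 4 libraries (JJ012 and 143B cells in suspension, each untreated or with 1 mM melatonin for 72 h) was poly(A)-selected and sequenced as paired ends of 150 bases. The authors deposited raw counts, and FPKM that were found to equal these counts divided by exonic length and library total, rounded to 2 decimals. The submitters' processing notes name cutadapt 1.9.1, HISAT2 2.2.1, HTSeq 0.6.1 and DESeq2, and hg38, with no strand setting.

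The genes, lists, rules and thresholds were chosen with earlier results of these data known. Of each list, the 3 tested genes with the largest absolute difference in each line and at least 5 FPKM in 1 library were to be named, and some that stayed under the threshold appear only in counts. A gene that the rule names is not reported here. ATF3, JDP2, KLF10, BTG1, GADD45B, BRAF, MAP3K1, MXD4, MYCN and HMOX1 were named after their values were seen, to complete short counts. The difference of log2 ratios between lines, the promoter window and the list counts under other scalings were added after seeing the data. Alternatives were a pseudocount of 0.1, no filter or a filter of 5 FPKM, a threshold of 1, median centring, TPM, CPM, TMM factors (edgeR 4.0.16), median-of-ratios size factors (DESeq2 1.42.0), totals without mitochondrial genes, and removal of the running median over exonic length (501 genes). Without replicates edgeR's and DESeq2's tests were not used. Gene types and exons came from GENCODE 29. Procedures were tested on simulated counts. Python 3.11.15, numpy 2.4.6, scipy 1.17.1, pandas 2.3.3, matplotlib 3.10.9 and R 4.3.3 were used.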

Additional observations from a re-analysis of the deposited data

Results flagged for a closer look

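FOSB and FOSL2 had log2 CPM ratios of opposite sign in the lines, each with a counting interval that left out 0. The interval of FOSB in JJ012 ended at -0.01, on library totals alone. TPM moved the median of all JJ012 genes by 0.26, far more than that margin. The ratio in JJ012 minus that in 143B was -1.31 for FOSB (-1.95 to -0.66) and 1.04 for FOSL2 (0.94 to 1.14). These intervals cover counting error only, and the difference between conditions was not tested, since each library stands alone. FOSB rests on 48 to 149 counts per library, with the opposite-strand gene ERCC1 at 598 to 1432 counts, and FOSL2 on 2619 to 4383 counts.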

How the results depend on the processing

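Among the 10 genes, no call reversed its direction under any alternative. In JJ012 the count of higher genes was 2 at a threshold of 1, for which the share of all tested genes was not counted. The median in JJ012 was 0.68 with a filter of 5 FPKM, 0.58 with TPM and 0.45 with the length trend removed. In 143B 3 genes were higher with a pseudocount of 0.1 or with CPM and 2 with TPM, where 10.7%, 6.29% and 8.58% of all tested genes were higher, and the median was 0.20 with the length trend removed. Between the control libraries the count of lower genes was 0 with a filter of 5 FPKM, where 40.5% of all tested genes were lower. MYC, at 2.86 and 1.06 FPKM, did not pass that filter. The count was also 0 at a threshold of 1, where the share of all genes was not counted. The median over the tested genes among the 10 was 0.98 with a pseudocount of 0.1, 1.10 with a filter of 5 FPKM, 1.09 centred and 1.27 with TPM. With TMM factors it was 1.06, with size factors 1.01 and with the length trend removed 1.60. Over all tested genes the median moved by -0.07, 0.06, 0.29, 0.30, 0.35, 0.29 and 0.29 in the same order. The JUN share of AP-1 by CPM was 58.3% in the JJ012 control, 55.4% with melatonin, 61.2% in the 143B control and 65.4% with melatonin. EGR1 in JJ012 reached 0.58 with TPM, FOSB and MYC in 143B reached 0.70 and 0.67 with a pseudocount of 0.1, and JUND between the lines moved from -0.13 to 0.79 with the length trend removed. The causes were not tested.

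Depth limits FOS, FOSB, MYC in 143B and EGR1 in JJ012, whose counts ran from 48 to 224. No paired analysis was possible because each condition has 1 library.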
